A study of Mus musculus with 71 samples.

Results

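The transcripts of 10 subunits of the CCR4-NOT complex were followed by SLAM-seq in male mouse embryonic stem cells (mESCs) in which the m6A methyltransferase Mettl3 was inhibited. The members were taken by gene name (Cnot1, Cnot2, Cnot3, Cnot4, Cnot6, Cnot6l, Cnot7, Cnot8, Cnot10 and Cnot11), and all 10 were found among the 21527 genes in the files. The subunit gene Cnot9 was not part of this choice and was counted with the wider deadenylation pathway. The cells were grown in 2i/LIF medium and labelled with 100 µM 4-thiouridine (s4U) for 24 h. The cells received the Mettl3 inhibitor STM2457 at 20 µM, or DMSO alone as control, starting 6 h ahead of a chase with excess uridine and lasting through it. Libraries were made after 0, 1, 1.5, 2.3, 3.5, 5.3, 8 and 12 h of chase, with 4 libraries per treatment and time point and 3 for STM2457 at 3.5 h. Another 4 libraries per treatment came from cells without s4U, which gave 71 libraries in 18 groups. The study's methods describe its replicates as biologically independent, and the labels add nothing on how the cultures were separated.

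CCR4-NOT is the main deadenylase of the cytoplasm: it shortens the poly(A) tail, usually the first step in the decay of an mRNA. Cnot1 is the scaffold that holds the other subunits. Cnot2 and Cnot3 form the NOT module, and Cnot10 and Cnot11 bind the amino-terminal part of the scaffold. The complex carries a DEDD-family deadenylase, Cnot7 or its paralogue Cnot8, together with an EEP-family deadenylase, Cnot6 or its paralogue Cnot6l. Cnot4 is an E3 ubiquitin ligase that associates with the complex. The complex is brought to mRNAs by RNA-binding proteins and adaptors, among them the m6A reader Ythdf2, and in mESCs it has been linked to the maintenance of the undifferentiated state.

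All 10 are protein-coding genes. In GRCm38 (GENCODE M21) the members named most often here lie at chr9:114585878-114640184 (Cnot10, minus strand), chr11:58104153-58118594 (Cnot8, plus strand), chr8:40492540-40515847 (Cnot7, minus strand), chr10:116485161-116581511 (Cnot2, minus strand) and chr11:49671503-49712723 (Cnot6, minus strand), and reads were counted in windows of their 3′ UTRs.

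The motif GGACT, a form of the consensus around methylated adenosines, was searched on the sense strand in 300 bases around the end of the stop codon, where m6A is often found. One transcript per gene was taken from GENCODE M21 (GRCm38), the one with the longest coding sequence. Of the 10 members, 2 held the motif in this window, Cnot8 and Cnot11, and 31.7% of 16727 genes did. Both matches lay in the coding sequence and are printed 5′ to 3′ with the motif in capitals.

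Cnot8, chr11:58117520-58117546, plus strand: aatgaggatgtGGACTgtgcccaggag
Cnot11, chr1:39545126-39545152, plus strand: attaacgtgcaGGACTtgtttatagaa

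In Cnot8 the first base of the motif was the 58th counted back from the last base of the stop codon, and in Cnot11 it was the 130th. Over the whole transcript, Cnot1 and Cnot6 each held 11 copies, Cnot4 held 5, Cnot10 and Cnot11 held 3 each, Cnot2 and Cnot7 held 2 each and Cnot8 held 1, whereas Cnot3 and Cnot6l held none. Longer transcripts have more room for the motif, and a match does not show that a site was methylated. The files hold no m6A measurement.

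The libraries held 4539726 to 7368244 reads, and the members were read at different depths. Cnot1 had the most reads (933 to 1763 per library), Cnot2, Cnot6, Cnot7, Cnot8, Cnot10 and Cnot11 had 155 to 847, and Cnot3, Cnot4 and Cnot6l had 28 to 225, 84 to 325 and 28 to 104. These are counts at the 3′ ends of transcripts and are not set against each other between genes. For Cnot3, 68.3% of reads over all libraries also mapped elsewhere (48.8% to 94.6% per library), for Cnot1 18.9% and for Cnot8 6.0%, so the values of Cnot3 are uncertain. Of 10 naive pluripotency markers 9 were among the genes counted. Per library their summed level was 1281 to 2159 CPM (reads scaled to the total of the library) in DMSO and 1887 to 2407 CPM in STM2457. Among them Klf2 had means of 512 CPM in DMSO and 761 CPM in STM2457, and Esrrb of 76.3 and 116 CPM. Pou5f1 was at 817 and 822 CPM, and Dppa3 went the other way, at 60.9 and 50.5 CPM. Klf4 was low, at 2.7 and 2.9 CPM. The part of these markers in the members' differences was not tested. Of the 6 feeder fibroblast markers 5, and of the 5 primitive endoderm markers 4, averaged under 1 CPM. The feeder marker Thy1 was at 9.8 CPM in DMSO and 11.8 CPM in STM2457, and the endoderm marker Gata4 at 4.2 and 4.8 CPM. Of the 6 primed or germ layer markers 4 were among the genes counted, and 1 of these, Fgf5, averaged under 1 CPM. Eomes was at 7.5 CPM in DMSO and 8.8 CPM in STM2457. Otx2 was at 4.8 and 5.2 CPM, and Mixl1 at 2.5 and 2.4 CPM.

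The first principal component of all expressed genes other than the members held 34.8% of the variance. On it, 12 libraries stood apart from the other 59. They comprised 9 DMSO and 3 STM2457 libraries: 1 unlabelled DMSO library, 1 DMSO library at 0 h, 3 DMSO and 3 STM2457 libraries at 1 h, 2 DMSO libraries at 1.5 h and 2 DMSO libraries at 5.3 h. The level of Cnot3 in these libraries was 5.43 to 19.7 CPM (median 12.5), against 11.4 to 38.99 CPM (median 25.1) in the others. The level of Cnot4 went the other way, at 35.6 to 58.6 CPM (median 47.4) against 13.4 to 46.7 CPM (median 26.3). The share of Cnot1 reads that mapped to several places was 24.8% to 38.96% in them and 10.6% to 26.4% in the others. What sets these libraries apart was not tested, and the main results are given with and without them. Leaving them out was chosen after the data were seen.

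**Figure D1:**
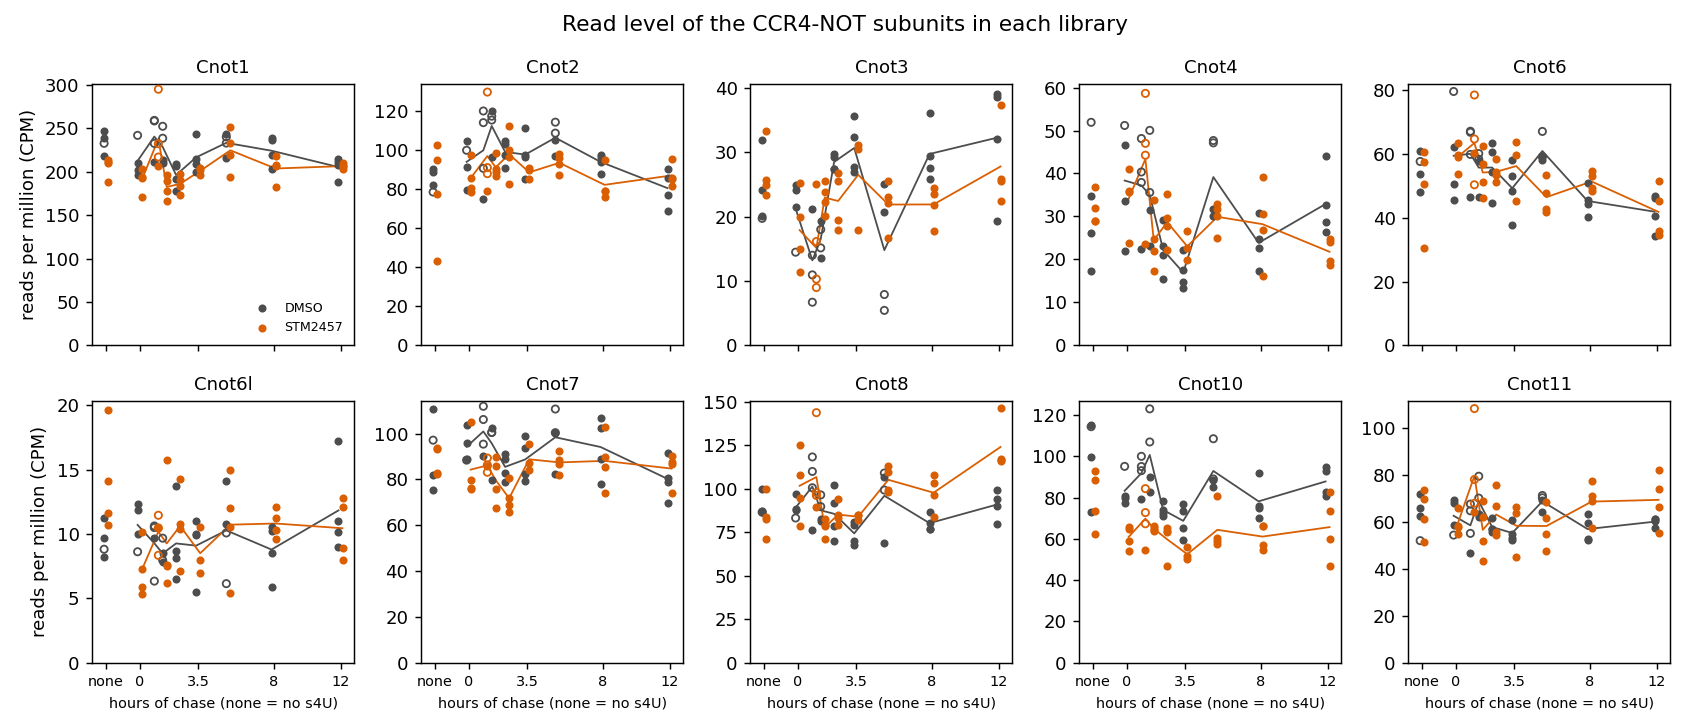
Level of each CCR4-NOT subunit in CPM (vertical axis, from 0) against hours of chase, with unlabelled libraries at "none". Points are libraries, lines join the means of a time point, and open points are the 12 libraries that stand apart. Cnot10 lies lower under STM2457 at all 8 time points.

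The first question was whether the subunit transcripts are present at other levels when m6A is depleted. Averaged over the 8 chase time points, Cnot10 was lower under STM2457 and Cnot8 was slightly higher, while the other 8 members were not called. With edgeR's quasi-likelihood test and a threshold of adjusted p under 0.01, this made 2 members of 10 called, whereas 26.5% of all 12659 genes tested were called in the same comparison. The median log2 difference over the 10 members was -0.02, against -0.01 over all genes. Levels are relative to all reads of a library, and less RNA per cell cannot be told apart from fewer cells carrying the transcript.

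Cnot10, a subunit of the module at the amino-terminal end of the scaffold, showed the clearest difference. At 0 h it was at 95.1, 80.6, 79.8 and 77.6 CPM in the DMSO libraries and at 58.98, 64.9, 65.6 and 54.2 CPM in the STM2457 libraries. At 12 h it was at 82.6, 80.9, 94.6 and 93.1 CPM with DMSO and at 59.7, 73.4, 46.9 and 82.7 CPM with STM2457. At 0 h every STM2457 library lay below every DMSO library, whereas at 12 h the highest STM2457 library reached into the DMSO range. The groups did not overlap at 6 of the 8 time points, and the mean was lower under STM2457 at 8 of 8. The log2 difference averaged over the chase was -0.42 ± 0.05 (SE; edgeR, adjusted p = 2.2e-10).

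The lower level of Cnot10 was as large without the libraries that stand apart. Without these 12 libraries the log2 difference was -0.40 (edgeR, adjusted p = 1.4e-08), and leaving out any one replicate of either treatment gave -0.44 to -0.39. The difference was already present at the onset of the chase, after 6 h of inhibitor, at -0.43 ± 0.14 (adjusted p = 0.070, not called on its own). In the unlabelled libraries it was -0.32 ± 0.14 (adjusted p = 0.16), with 73.0, 115.0, 99.5 and 114.3 CPM in DMSO and 93.0, 62.1, 88.4 and 73.4 CPM in STM2457, which overlapped.

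Cnot8, one of the paralogous DEDD-family deadenylases, moved the other way. Over the labelled libraries it ranged from 67.4 to 118.4 CPM with DMSO (median 87.5, n = 32) and from 70.9 to 146.6 CPM with STM2457 (median 96.2, n = 31). The ranges overlapped over most of their width. The log2 difference over the chase was 0.16 ± 0.05 (edgeR, adjusted p = 0.0045). This call was lost without replicate 1 of DMSO, where the difference was 0.11 (adjusted p = 0.051), and without replicate 1, 2 or 4 of STM2457, where it was 0.15, 0.15 and 0.13 (adjusted p = 0.018, 0.021 and 0.023). Without the 12 libraries apart it stayed called at 0.19 (adjusted p = 0.0034).

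Cnot1, the scaffold, and Cnot7, the paralogue of Cnot8, were slightly lower under STM2457 but missed the threshold. Cnot1 ranged from 177.6 to 259.1 CPM with DMSO (median 213.6) and from 165.9 to 295.0 CPM with STM2457 (median 203.0), with a log2 difference of -0.09 ± 0.03 (edgeR, adjusted p = 0.016). Cnot7 ranged from 69.9 to 111.9 CPM (median 91.3) and from 65.5 to 104.9 CPM (median 85.6), with a log2 difference of -0.12 ± 0.04 (adjusted p = 0.017). DESeq2 called both, at adjusted p = 0.0045 and 0.0087, so that it called 4 of the 10 members, beside 26.5% of the 13024 genes it tested. Without the 12 libraries apart neither passed the threshold (edgeR, adjusted p = 0.088 and 0.17).

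The other 6 members were not called. Cnot2 was at -0.10 ± 0.05 (edgeR, adjusted p = 0.10) and Cnot11 at 0.08 ± 0.05 (adjusted p = 0.21). Cnot6 and Cnot6l, the paralogous EEP-family deadenylases, were each at 0.01, with standard errors of 0.06 and 0.10. Cnot3 was at -0.01 ± 0.10 and Cnot4 at -0.03 ± 0.09. The levels of both differ in the libraries that stand apart, and the sign of each turned in some settings, to 0.10 for Cnot3 with reads mapped to 1 place and to 0.04 for Cnot4 without these libraries.

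**Figure D2:**
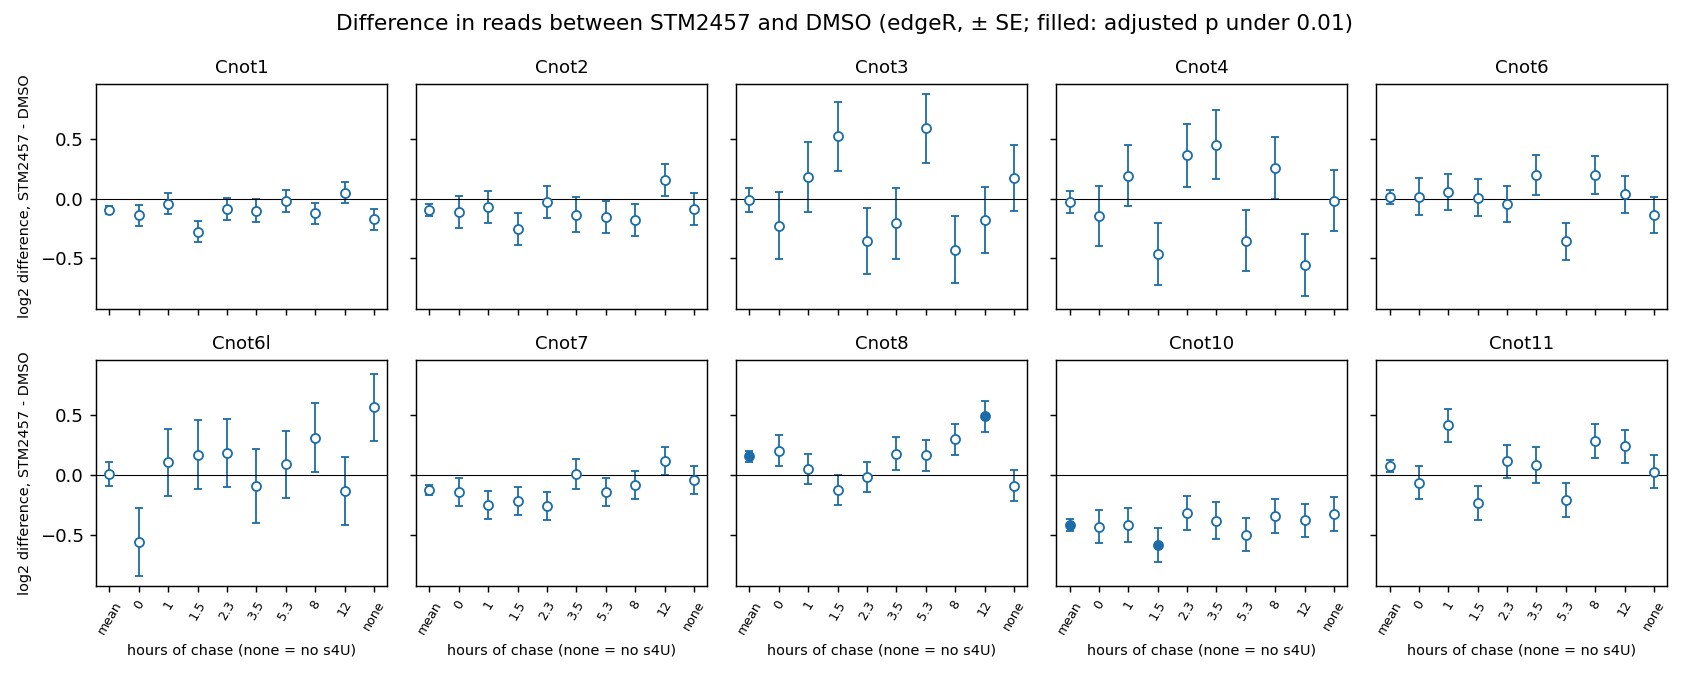
Log2 difference in reads, STM2457 minus DMSO, with its standard error (vertical axis), for the mean of the chase, each time point and the unlabelled libraries ("none"). Filled points passed the threshold: Cnot10 in the mean and at 1.5 h, and Cnot8 in the mean and at 12 h.

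At single time points edgeR called 2 members, each at one of them, and DESeq2 called 3, with Cnot1 in addition (2 members at 1.5 h, 1 at 5.3 h and 1 at 12 h). Of all genes DESeq2 called 13% at 1.5 h, 9.64% at 5.3 h and 7.32% at 12 h. By edgeR Cnot10 was called at 1.5 h, where 8.18% of all genes were. Its level was 89.9, 123.0, 82.8 and 106.9 CPM with DMSO and 63.9, 65.4, 64.2 and 66.2 CPM with STM2457, so the groups did not overlap, and the log2 difference was -0.58 ± 0.14 (edgeR, adjusted p = 0.0023). Of the 4 DMSO libraries at 1.5 h, 2 belong to those that stand apart, and without all 12 the difference was -0.40 (adjusted p = 0.10).

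Cnot8 was called at 12 h, where 5.41% of all genes were. It was at 80.0, 90.1, 94.1 and 99.5 CPM with DMSO and at 116.1, 116.4, 117.3 and 146.6 CPM with STM2457. None of the libraries at 12 h stand apart, and each STM2457 library lay above each DMSO library. The log2 difference was 0.49 ± 0.13 (edgeR, adjusted p = 0.0056), and without the highest library it was 0.40 (adjusted p = 0.044). The call was also lost without replicate 1, 2 or 3 of DMSO, at 0.43, 0.50 and 0.51 (adjusted p = 0.021, 0.018 and 0.014), and without the filter on low counts (0.49, adjusted p = 0.011). At 0, 1, 2.3, 3.5, 5.3 and 8 h none of the 10 members was called by edgeR, with 1, 3, 2, 1, 3 and 3 members at an unadjusted p under 0.05. The shares of all genes called at these times, by adjusted p under 0.01, were 1.68%, 1.53%, 1.61%, 1.3%, 4.45% and 2.34%. DESeq2 called 1 member at 5.3 h and none at the other 5 of these times.

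In the unlabelled libraries no member passed the threshold (0 of 10 called by edgeR and by DESeq2, 2 at an unadjusted p under 0.05), beside 2.58% of all genes. The 2 were Cnot10 and Cnot6l, the latter at a log2 difference of 0.57 ± 0.28 (adjusted p = 0.24). The labels do not give the hours of inhibitor for these libraries.

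The read levels were also compared over the chase itself. From 0 to 12 h in DMSO, the deadenylase Cnot6 fell and the other 9 members were not called, beside 13% of all genes. Cnot6 was at 79.6, 50.5, 45.5 and 62.2 CPM at 0 h and at 34.1, 46.3, 40.5 and 46.7 CPM at 12 h. Of the 12 h libraries 2 lay within the range of 0 h, and the log2 difference was -0.64 ± 0.16 (edgeR, adjusted p = 0.0015). The highest 0 h library, at 79.6 CPM, is one of those that stand apart, and without replicate 1 the difference was -0.38 (adjusted p = 0.12). Without the 12 libraries it was -0.49 (adjusted p = 0.019).

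With STM2457, Cnot6 was again the one member called from 0 to 12 h, beside 4.72% of all genes. It fell from 59.1, 53.9, 59.8 and 63.6 CPM to 45.3, 34.6, 51.4 and 35.998 CPM. The groups did not overlap, no library of either time stands apart, and the log2 difference was -0.62 ± 0.15 (edgeR, adjusted p = 0.0048). Leaving out replicate 1, 2, 3 or 4 of STM2457 gave -0.62, -0.59, -0.72 and -0.53 (adjusted p = 0.018, 0.042, 0.011 and 0.063), none past the threshold.

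Cnot2, Cnot4 and Cnot7 were close to the threshold in one treatment each. Cnot2 had a log2 difference of -0.36 ± 0.13 in DMSO (edgeR, adjusted p = 0.043). Cnot4 had a log2 difference of -0.77 ± 0.26 with STM2457 (edgeR, adjusted p = 0.046), and of -0.75 without the 12 libraries apart (adjusted p = 0.0083). Cnot7 was at -0.37 ± 0.12 in DMSO (adjusted p = 0.015), and at -0.42 without those libraries (adjusted p = 0.0095). For no member did the change over the chase differ between the treatments in the test of that difference (0 of 10 called by edgeR and by DESeq2, 0 at an unadjusted p under 0.05), beside 1.11% of all genes. The difference for Cnot6 was 0.02 ± 0.22 on the log2 scale.

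The effect of s4U on the members' read levels was compared in the same way. Between unlabelled cells and labelled cells at 0 h, edgeR called 0 of 10 members in DMSO (2 at an unadjusted p under 0.05), beside 0.513% of all genes, and 0 of 10 with STM2457 (3 at an unadjusted p under 0.05), beside 0.521%. DESeq2 called none in either. The T0 libraries enter both this comparison and the change over the chase.

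The paralogues were also compared within libraries, as the log2 ratio of their reads averaged over 7 time points for each replicate number (3.5 h left out). The ratio asks whether the cells carried relatively more of one deadenylase than of the other, and its absolute value also depends on how each 3′ end was read. For Cnot7 to Cnot8 it was 0.20, -0.11, 0.03 and 0.06 with DMSO and -0.27, -0.34, -0.07 and -0.32 with STM2457. Of the 4 STM2457 values 3 lay below every DMSO value. The means were 0.04 ± 0.13 and -0.25 ± 0.13 (SD, n = 4 each), and the difference of -0.29 missed the threshold (exact permutation, two-sided, p = 0.057, where 0.029 is the lowest possible).

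For Cnot6 to Cnot6l the ratio was 2.47 ± 0.15 with DMSO and 2.45 ± 0.17 with STM2457 (SD, n = 4 each). The groups overlapped and the difference was -0.02 (exact permutation p = 0.71). Without the 12 libraries apart the difference was 0.09 (exact permutation p = 0.66) for this pair and -0.29 (p = 0.057) for Cnot7 to Cnot8.

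The second question was how fast the transcripts decay. In SLAM-seq, s4U built into RNA is read as a T-to-C conversion, and the conversion rate is the share of covered T positions that carry one. At the onset of the chase the members' mean rates were 1.10% to 1.64% in DMSO and 0.888% to 1.45% in STM2457. In unlabelled cells they were 0.0415% to 0.206% and 0.0153% to 0.237%.

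The rate at 0 h was lower under STM2457 for Cnot7 and Cnot2 in every library, but not past the threshold over all genes. Cnot7 was at 1.51%, 1.65%, 1.86% and 1.55% with DMSO and at 1.07%, 1.23%, 1.11% and 1.01% with STM2457. Cnot2 was at 1.73%, 1.69%, 1.55% and 1.57% with DMSO and at 1.20%, 1.10%, 1.43% and 1.249% with STM2457. In neither gene did the treatments overlap. The share of all genes whose 0 h rates do not overlap was not determined. The log2 differences were -0.57 ± 0.14 for Cnot7 and -0.40 ± 0.13 for Cnot2 (limma, unadjusted p = 0.0033 and 0.015, adjusted p = 0.85 for both). These were the 2 members of 10 at an unadjusted p under 0.05, beside 620 of all 11194 genes tested. At the adjusted threshold limma called none of the members and 0% of all genes. The estimate was negative for all 10 members, from -0.87 for Cnot6l to -0.09 for Cnot8, and its median over all genes was -0.12.

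Half-lives were obtained by subtracting the mean rate of the unlabelled libraries, dividing by the rate at 0 h and fitting an exponential decay that starts at 1. The rate at 0 h thus enters every later value of a transcript. Fits were kept with a mean of more than 100 covered T positions, a half-life within 0.67 and 18 h and residuals whose standard error did not exceed 0.3, in DMSO and in STM2457 alike, which held for 7408 transcripts and for 8 of the 10 members. Cnot10 was left out for its residual standard error of 0.32 with STM2457, and Cnot6l for one of 0.36, also with STM2457.

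In DMSO the 8 members had half-lives of 1.65 to 2.98 h, with a median of 2.59 h against 3.19 h for all 7408 transcripts. The shortest was that of the ubiquitin ligase Cnot4 at 1.65 h, followed by Cnot6 at 2.27 h, Cnot7 at 2.41 h, Cnot2 at 2.47 h, Cnot8 at 2.71 h, Cnot3 at 2.77 h, Cnot11 at 2.79 h and Cnot1 at 2.98 h. All 8 lay below the median over all transcripts, and 8.18% of transcripts were shorter-lived than Cnot4 and 43.95% than Cnot1. Neighbours in the order from Cnot6 to Cnot1 do not differ beyond the spread over replicate series, in which Cnot6 alone ran from 1.65 to 3.34 h.

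With STM2457 the half-lives were 2.01 to 4.01 h, with a median of 2.88 h against 3.45 h for all transcripts. They were longer than in DMSO for 6 of 8 members and shorter for Cnot6 and Cnot1, and 56.7% of all transcripts were longer. The median log2 ratio over the members was 0.24, against 0.07 over all transcripts. It ranged from 0.15 to 0.47 when single replicates were left out, against 0.02 to 0.10 over all transcripts. The 0.15, without replicate 2 of STM2457, was over all 10 members. Without the 12 libraries apart the members' median was 0.32, against 0.17 over all transcripts. With a fitted starting level it was 0.13, against 0.04 over all transcripts, and 7 of 9 members were longer. The count of longer half-lives was 5 of 8 without replicate 1, 2 or 4 of DMSO and without the 12 libraries, and 8 of 8 without replicate 3 of STM2457. Without the 12 libraries 65.7% of all transcripts were longer. Over 17 settings the sign turned in some for Cnot1, Cnot3, Cnot6 and Cnot8, and was positive in all 17 for Cnot2, Cnot4, Cnot7 and Cnot11. Cnot1 (-0.03), Cnot3 (0.04), Cnot8 (0.04) and Cnot6 (-0.17) had ratios below the median of all transcripts. Cnot7 (0.73), Cnot2 (0.47), Cnot4 (0.47) and Cnot11 (0.43) had higher ones. With single replicates left out Cnot4 ran from 0.26 (without replicate 2 of STM2457) to 1.07 (without replicate 3 of STM2457), and Cnot11 from 0.29 (without replicate 4 of DMSO) to 0.59. Of all transcripts, 90.6% had a lower ratio than Cnot7.

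**Figure D3:**
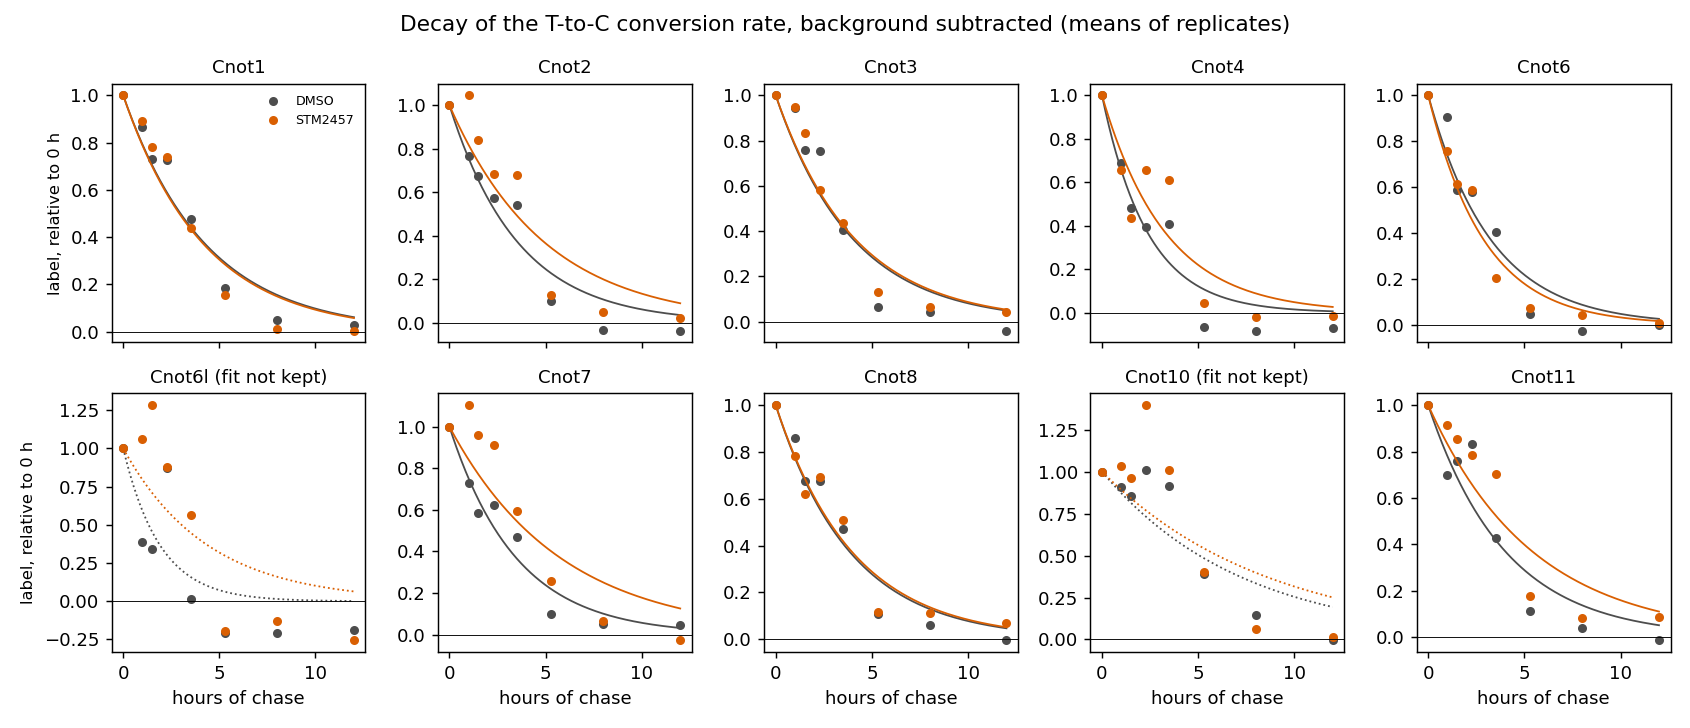
Conversion rate relative to 0 h after background subtraction (vertical axis, mean of the replicates) against hours of chase, with the fitted exponential curves. Dotted curves mark Cnot6l and Cnot10, whose fits were not kept. The STM2457 points of Cnot7 and Cnot2 lie above their DMSO points from 1 to 5.3 h.

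Each member was also fitted in 4 series per treatment, one per replicate number, with the same limits on each fit. Cnot2, a subunit of the NOT module, had half-lives of 2.21, 2.40, 2.79 and 2.53 h in the DMSO series and of 3.77, 3.59, 3.24 and 2.83 h in the STM2457 series. All 4 STM2457 values lay above all DMSO values, with means of 2.48 ± 0.24 and 3.36 ± 0.41 h (SD, n = 4 each). The two-sided exact permutation test gave p = 0.029, the smallest it allows. In the test over all transcripts the log2 difference was 0.43 ± 0.18 (limma, adjusted p = 0.36).

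Cnot7 was at 2.89, 2.49, 1.96 and 2.45 h in DMSO and at 3.79, 3.53 and 4.38 h in the 3 STM2457 series that passed, while the fourth, at 4.19 h, exceeded the limit on the residual. The treatments did not overlap (mean 2.45 ± 0.38 h, n = 4, and 3.90 ± 0.44 h, n = 3, SD), with an exact permutation p = 0.029, again the smallest this design allows. Among transcripts with at least 3 series per treatment, its log2 difference was 0.68 ± 0.23 (limma, adjusted p = 0.37). These were the 2 lowest of 8 exact tests on members, and neither was called over all transcripts. With at least 3 series per treatment, 2 of 6 members and 400 of 3851 transcripts had an unadjusted p under 0.05 (limma). The share of all transcripts whose series do not overlap was not determined.

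The rate at 0 h enters both half-life differences by construction, and its part in them was not tested. The 0 h rate of both genes was the lower one under STM2457, and a lower 0 h rate raises all later values of a series. When the starting level was fitted instead of being fixed at the 0 h rate, Cnot7 had half-lives of 2.41 h (DMSO) and 3.15 h (STM2457), and the log2 ratio was 0.39 in place of 0.73. For Cnot2 it was 2.36 and 2.88 h, with a log2 ratio of 0.28 in place of 0.47. This fit was added after the values had been seen. At 2.3 h the mean unscaled rates of the treatments lay less than the SD of the DMSO libraries apart. They were 1.04% and 1.02% for Cnot7 and 0.983% and 0.867% for Cnot2. At 5.3 h Cnot7 was at 0.209% ± 0.057 in DMSO and 0.359% ± 0.056 in STM2457 (SD, n = 4 each). Cnot2 went the other way at 5.3 h, at 0.250% ± 0.083 in DMSO and 0.196% ± 0.042 in STM2457.

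The other members had series that overlapped between the treatments. Cnot1 was at 4.08, 2.56, 3.09 and 2.52 h and at 2.56, 3.64, 2.77 and 2.80 h (exact permutation p = 0.74). Cnot8 was at 2.05, 2.24, 4.21 and 2.74 h and at 2.82, 2.83, 1.73 and 4.35 h (exact permutation p = 0.86). Cnot6 had a log2 difference of -0.17 (exact permutation p = 0.63) and Cnot11, with 3 of 4 STM2457 series kept, one of 0.26 (exact permutation p = 0.40).

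Cnot3 and Cnot4 each kept 3 DMSO and 2 STM2457 series, with which the smallest p is 0.1, and gave 0.80 and 0.70. Without the 12 libraries apart, Cnot4 had half-lives of 0.981 h (DMSO) and 2.35 h (STM2457), a log2 ratio of 1.26, and the log2 ratio of Cnot3 was -0.20. That setting took out 3 of the 4 libraries at 1 h in each treatment. Limma could test 4 members with a half-life in all 8 series (Cnot1, Cnot2, Cnot6 and Cnot8) and called none of them, with 1 at an unadjusted p under 0.05. Over all 1825 transcripts tested, 0.0548% were called and 215 were at an unadjusted p under 0.05.

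**Figure D4:**
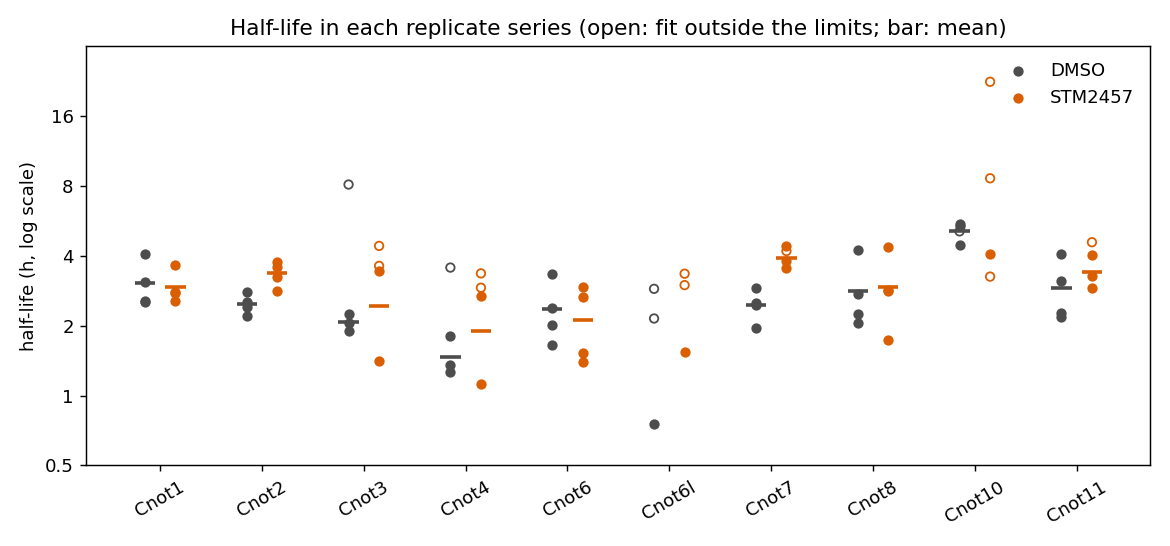
Half-life in hours (log scale) in each replicate series, DMSO left and STM2457 right for each subunit, with bars for the mean of the series kept and open points for fits outside the limits. One DMSO series of Cnot6l lies under the axis and one of STM2457 gave no fit. The treatments do not overlap for Cnot2 and Cnot7.

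Cnot10, the member whose reads were lower, lost its label late. Its rate was 1.10% at 0 h, 1.12% at 2.3 h and 1.02% at 3.5 h in DMSO, and 0.888%, 1.21% and 0.896% in STM2457, and at 5.3 h it was 0.471% and 0.395%. Relative to 0 h, 39.1% of the label was left at 5.3 h in DMSO and 40.1% in STM2457, whereas none of the 8 members with a kept fit had more than 18.4% left in DMSO. The curve in STM2457 missed the limit on the residual, and the fitted half-lives of 5.06 and 6.01 h are given as a description. The fit was kept in 3 of 17 settings, and the direction differed between them. The log2 ratio was 0.32 with the share of reads with conversions, -0.16 without replicate 2 of STM2457 and 0.03 with a fitted starting level. The DMSO series that passed were at 5.37, 5.48 and 4.46 h and the 1 STM2457 series that passed at 4.06 h, so the treatments could not be tested.

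Cnot6l, with 28 to 104 reads per library, had few conversions. At 0 h its STM2457 libraries held 0 to 18 conversions on 636 to 1238 covered T positions, and its DMSO libraries 8 to 31. One of 4 series passed the limits in each treatment. Its fit came within the limits in 3 of 17 settings: with conversions pooled over replicates (1.29 h in DMSO, 2.65 h in STM2457, log2 ratio 1.04), and without replicate 2 or 4 of STM2457 (0.75 and 1.18).

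The members' labels did not follow a single exponential evenly. At 2.3 h all 8 kept members lay above their fitted curve in both treatments, and at 5.3 and 8 h all 8 lay below it. The same held for most transcripts, of which 87.2% lay above at 2.3 h and 93.6% below at 5.3 h in DMSO, and 86.1% and 90.9% in STM2457. A half-life is therefore a summary of a curve whose loss of label was slow before 3.5 h and steep between 3.5 and 5.3 h.

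The wider deadenylation pathway was described from a list of 40 genes (other subunits, other deadenylases, BTG/TOB adaptors, recruiting RNA-binding proteins, poly(A)-binding proteins and downstream partners), of which 38 could be tested. Over the mean of the chase 8 rose and 6 fell under STM2457, and the median log2 difference over the 38 was -0.03, against -0.01 over all genes, of which 26.5% were called. The largest rises were those of Pde12, a mitochondrial deadenylase, at 0.73 ± 0.06, of Ythdf2, an m6A reader that brings CCR4-NOT to methylated mRNAs, at 0.72 ± 0.07, and of Nanos3, an RNA-binding protein of germ cells, at 0.65 ± 0.09. The largest falls were those of Tnrc6c, a GW182 protein of the microRNA pathway, at -1.86 ± 0.14, of Btg2, an adaptor that binds Cnot7 and Cnot8, at -0.41 ± 0.10, and of Tnrc6a, another GW182 protein, at -0.33 ± 0.08 (SE; edgeR, adjusted p from 4.5e-18 to 0.0011 for these 6). Cnot9 was at -0.07 ± 0.04 (adjusted p = 0.20). The list kept a half-life for 27 genes, with a median log2 ratio of 0.20, and 17 of the 27 (62.96%) were longer under STM2457, against 0.07 and 56.7% over all transcripts.

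Each member's pattern over the 18 group means was also compared with that of all tested genes. Among the genes closest to Cnot1 were Cacybp and Rundc1 (Pearson r = 0.89 and 0.88, across 18 groups that share the libraries apart and the treatments, and 0.78 and 0.76 without those libraries). Closest to Cnot10 was Eif2d (r = 0.94), to Cnot3 Cenph (0.94), to Cnot6 Klf6 (0.91), to Cnot4 Dcun1d4 (0.89), to Cnot7 Zfp760 (0.87), to Cnot2 Taf1 (0.86), to Cnot8 Ntrk3 (0.85), to Cnot11 Etaa1 (0.84) and to Cnot6l Mucl3 (0.70). Without the 12 libraries these were 0.86 for Cnot10, 0.67 for Cnot3, 0.88 for Cnot6, 0.63 for Cnot4, 0.68 for Cnot7, 0.80 for Cnot2, 0.75 for Cnot8, 0.83 for Cnot11 and 0.49 for Cnot6l. No member was the gene closest to another member. Among the members, Cnot3 and Cnot4 went against each other (r = -0.74, and -0.50 without the 12 libraries), and Cnot1 and Cnot7 went together (r = 0.80, and 0.71 without them).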

How the data were processed

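Male mESCs were profiled by SLAM-seq with QuantSeq 3′ FWD libraries, which count reads at 3′ ends and carry no molecular identifiers. Per the labels and the study's methods, the authors counted reads in 3′ UTR windows (GENCODE M23, GRCm38.p6) with SLAM-DUNK 0.4.3. The deposited tables, collapsed to genes by the authors, give raw read counts, CPM (counts scaled to the library total), covered T positions, T-to-C conversions and the conversion rate as a fraction, printed here in percent. Libraries held 4539726 to 7368244 reads. The STM2457 dose comes from the methods. The chase hours were read from the picture of the experimental scheme, since neither the labels nor the methods list them. The methods give steps of 1.5 and a last time point of 12 h, from which the hours are 1.053, 1.58, 2.37, 3.556, 5.333, 8 and 12, and refitting with these left the members' median log2 half-life ratio at 0.24. Count tests used edgeR 4.0.16 (quasi-likelihood, all 18 groups in one fit, Benjamini-Hochberg), with DESeq2 1.42.0 as an alternative. Rates and half-lives were tested with limma 3.58.1 (R 4.3.3) on a log2 scale, and single values with exact permutation tests (numpy 2.4.6). The tests were checked on simulated data. Members and gene lists were chosen with earlier results of these data known. Named genes were the 10 members, the 3 pathway genes with the largest called rise and fall, and the genes most alike each member, of which 1 is not reported here. Alternatives were another tool and scaling, no low-count filter, reads mapped to 1 place, the replicate block, each replicate left out, and, added after the data were seen, the 12 libraries apart left out, a principal component as covariate, a fitted starting level and the hours from steps.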

Additional observations from a re-analysis of the deposited data

Results flagged for a closer look

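Dixon's criterion was applied to 184 groups of 4 values, which were CPM levels of libraries, half-lives of series and paralogue ratios of series. It flags about 1 group in 20 by chance. In 14 groups, all of library levels, 1 library lay far from the other 3. Of these, 4 concerned Cnot10: a DMSO library at 0 h at 95.11 CPM (the others 77.6 to 80.59), an STM2457 library at 2.3 h at 46.62 CPM (63.43 to 65.39), a DMSO library at 5.3 h at 108.5 CPM (85.29 to 88.99) and an STM2457 library at 5.3 h at 80.61 CPM (57.71 to 60.38). For Cnot8, 3 libraries stood out. They were an unlabelled DMSO library at 99.62 CPM (86.57 to 87.31), an STM2457 library at 1 h at 143.8 CPM (89.35 to 97.83) and an STM2457 library at 12 h at 146.6 CPM (116.1 to 117.3).

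The other 7 were spread over 5 members. Cnot7 had an STM2457 library at 0 h at 104.9 CPM (75.99 to 79.81) and a DMSO library at 1.5 h at 79.7 CPM (100.4 to 102.3). Cnot6 had a DMSO library at 1.5 h at 46.46 CPM (57.94 to 60.12) and one at 5.3 h at 67.07 CPM (58.15 to 59.42). Cnot1 had an unlabelled STM2457 library at 188.2 CPM (210.4 to 213.8), Cnot2 an STM2457 library at 8 h at 95.01 CPM (75.84 to 79.11) and Cnot6l an STM2457 library at 1.5 h at 15.74 CPM (6.203 to 7.618).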

How the results depend on the processing

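Fits without the 12 libraries apart, with the first principal component as a covariate, with a fitted starting level or with hours from steps were chosen after seeing the data. The 2 members called over the mean of the chase became 4 with DESeq2 and 1 to 3 when a replicate was left out. The 2 called at single time points became 3 with DESeq2, 1 without a low-count filter, without the 12 libraries and with the component, and 0 to 2 with a replicate left out. The 1 member called from 0 to 12 h in DMSO became 2 with reads mapped to 1 place, 0 with the component, and 0 to 1 with a replicate left out. In STM2457 the 1 became 2 with only the libraries of the contrast and without the 12 libraries, and 0 to 1 with a replicate left out.

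The log2 ratio of Cnot6 to Cnot6l turned to 0.092 without the 12 libraries and ran from -0.0767 to 0.0361 with a replicate left out. Uncalled differences over the chase also turned: Cnot3 to 0.0976 with reads mapped to 1 place (-0.0992 to 0.0495 with a replicate left out), Cnot4 to 0.0441 and 0.180 and Cnot6l to -0.0428 and -0.0542 without the 12 libraries and with the component (-0.0934 to 0.0468 and -0.0721 to 0.0547 with a replicate left out), and Cnot6 within -0.0104 to 0.0491 with a replicate left out. The cause was not tested.

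Of 35 same-numbered pairs of libraries 1 correlated over 0.1 (mean r 0.01), so the numbers were not taken to pair the samples. With the replicate block 2 members were called over the mean of the chase, 2 at single time points, and 1 in each treatment from 0 to 12 h, as without it. The exact p for Cnot7 to Cnot8 was then 0.125, the smallest that test allows. Depth limits Cnot6l, with 28 to 104 reads per library, and Cnot3, whose reads mostly map to several places.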
